A study of Homo sapiens with 10 samples.

Results

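Inflammasome genes were examined in RNA-Seq libraries of MV4-11, an established human acute myeloid leukemia (AML) cell line of the monocytic lineage that carries an internal tandem duplication in FLT3. The members were chosen by symbol, but with earlier results of these data known. They were the sensors NLRP3, NLRC4, NAIP, NLRP1 and AIM2, the adaptor PYCARD, the protease CASP1, and the effectors IL1B, IL18 and GSDMD. All 10 of 10 were found among the 19590 genes of the table, and all 10 passed the filter on low values, set at 10 normalized counts for the mean of the 8 libraries. The lowest of them by that mean, IL1B, had 104.8, so that no member entered the test through 1 group alone. The 4 Control libraries came from cells that had received a non-targeting CRISPR vector by lentivirus, and the 4 IRF8 KO libraries from cells in which the interferon regulatory factor IRF8 had been targeted with the same vector system. Both groups were selected with puromycin and grown in the same medium, and the labels name no inflammasome stimulus for either. The knockout lines were clones grown from limiting dilution, whereas the Control cells are not described as clones. Effects of cloning and of the knockout therefore cannot be told apart. The study describes 3 knockout clones, and the labels do not say which clone gave which of the 4 libraries, so some libraries may share a clone. Nothing states that the replicates were separate cultures, so the p-values measure the spread between these libraries, which may be technical. In such bulk libraries, fewer cells of a type and less RNA per cell cannot be told apart.

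An inflammasome is a cytosolic complex in which a sensor, once it meets a microbial product or a sign of damage, gathers the adaptor ASC and activates caspase-1. Caspase-1 then cuts the precursors of the cytokines IL-1β and IL-18 into their active forms, and cuts gasdermin D, whose released part forms pores in the plasma membrane and can end in a lytic death called pyroptosis. Monocytes and macrophages are the cells best known for it. RNA-Seq measures only the supply of transcripts; assembly, cleavage and secretion happen to proteins and were not measured. IRF8 is a transcription factor of monocytes and dendritic cells, and in mouse macrophages it is known as an activator of the Naip genes.

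Reads assigned to genes numbered 39560072 in the shallowest library and 65519047 in the deepest, the median being 52233344. The targeted gene checked the labels, with 36891, 15192, 43016 and 22535 normalized counts of IRF8 in Control replicates 1 to 4 and 6377, 2401, 12903 and 7820 in IRF8 KO replicates 1 to 4. The log2 fold change of IRF8 was -2.11 (SE, standard error, 0.51, limma adjusted p = 0.022), and its call was lost without Control replicate 1, Control replicate 3 or IRF8 KO replicate 1 (adjusted p between 0.053 and 0.059). The study reports that IRF8 protein was absent from its knockout cells by Western blot. The RNA level here does not measure how complete the knockout was. Of 10 monocytic lineage markers, MPO and PTPRC among them, 10 were tested, 6 were called higher, 0 lower and 4 neither in the IRF8 KO libraries. Of all tested genes, 8.65% were called higher and 9.56% lower. The sum of these markers, which 1 abundant gene can carry, ran from 27096 to 33556 normalized counts in Control. It ran from 78238 to 320844 in IRF8 KO libraries. The summed T cell markers reached at most 25.7 and the erythroid markers at most 9.48 normalized counts in any library, with HBB at 0 throughout. The B cell markers summed to between 195.4 and 516.7 in Control and between 167.3 and 925.2 in IRF8 KO libraries, with MS4A1 at 0 in every library. Epithelial and stromal markers summed to at most 90.6 in a Control and 416.7 in an IRF8 KO library. Whether the higher summed level of the monocytic lineage markers has a part in the differences below was not tested.

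The inflammasome genes did not move one way. In the limma fit across all 13110 tested genes, 6 of the 10 members passed a Benjamini-Hochberg adjusted p of 0.05, where 18.2% of all tested genes did. NLRP3 and NLRP1 were lower in the IRF8 KO libraries (background for lower calls 9.56%), and NAIP, CASP1, IL18 and GSDMD were higher (background for higher calls 8.65%). NLRC4, AIM2, PYCARD and IL1B did not pass. The same 6 genes were those in which the 4 Control and the 4 IRF8 KO values did not overlap, which held for 25.3% of tested genes. By the thresholds of the study, 2-fold or more with an unadjusted p under 0.01, 4 members were called, against 10.9% of all genes. CASP1 and IL18 were higher (background 4.78%) and NLRP3 and NLRP1 lower (background 6.12%); NAIP, at 1.99-fold, lay just short of the fold threshold. With the replicate number added to the fit as a blocking term, 6 members were called, against 28.7% of all genes. The median absolute log2 fold change of the members was 0.81, beside 0.30 over all tested genes. As the members were chosen with earlier results of these data known, these comparisons with all genes are descriptions. Each log2 fold change is a difference of log2(normalized count + 1), IRF8 KO minus Control.

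**Figure D1:**
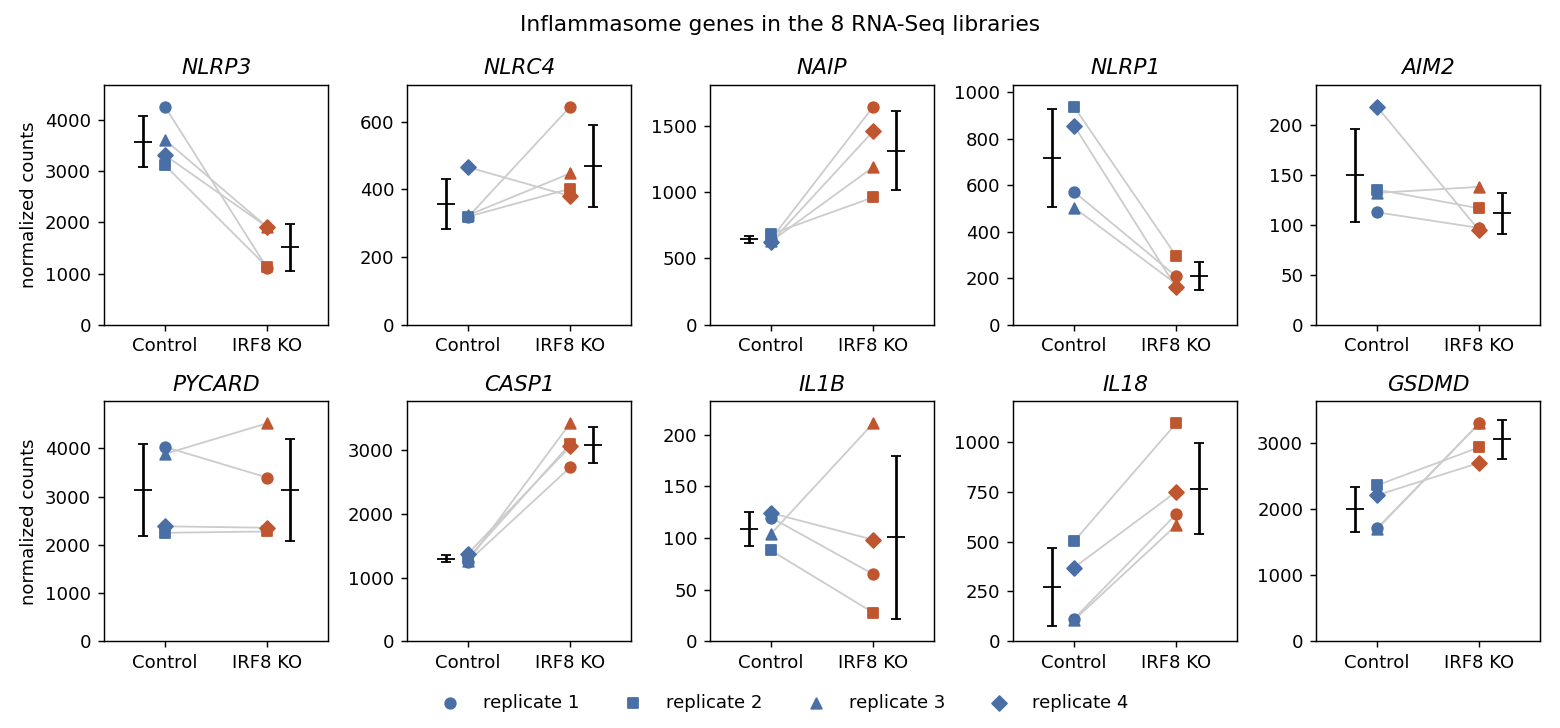
Normalized counts (linear axis from 0) of the 10 members in Control and IRF8 KO libraries; each marker shape is a replicate number, grey lines join equal numbers, and black bars give mean ± SD of 4 libraries. NLRP3 and NLRP1 lie lower and NAIP, CASP1, IL18 and GSDMD higher in every IRF8 KO library than in any Control library, while NLRC4, AIM2, PYCARD and IL1B overlap.

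NLRP3, a sensor of ion efflux and membrane damage that is usually made only after an inflammatory signal, had 4260.4, 3116, 3615 and 3312 normalized counts in Control replicates 1 to 4. In IRF8 KO replicates 1 to 4 the values were 1107, 1128, 1907 and 1911. The groups did not overlap, and knockout replicates 3 and 4 were higher than replicates 1 and 2. The means of 3576 ± 500.2 and 1513 ± 457.1 (SD, n = 4 each) gave a log2 fold change of -1.28 (SE 0.22, limma adjusted p = 0.0048; exact permutation test, p = 0.029). The value 0.029 is the smallest that 4 libraries against 4 allow in this two-sided test.

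NLRP1, which senses protease activity and the inhibition of dipeptidyl peptidases and also engages caspase-1, showed the largest drop of the 10 genes. Its normalized counts were 571.2, 936.7, 503.7 and 855.9 in Control replicates 1 to 4, against 207.8, 295.3, 174.7 and 160.3 in the IRF8 KO replicates. The highest knockout value was therefore below the lowest control value, although control replicates 1 and 3 were lower than 2 and 4. NLRP1 had a log2 fold change of -1.76 (SE 0.27, limma adjusted p = 0.0029), with means of 716.9 ± 211.6 and 209.5 ± 60.6 (SD, n = 4 each).

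NAIP moved the other way. NAIP binds bacterial flagellin and secretion system proteins and hands the signal to NLRC4, with which it forms the complex. It was even across the Control replicates, at 643.6, 683.1, 628.2 and 622.4 normalized counts, and stood at 1642, 959.6, 1188 and 1458 in the IRF8 KO replicates. All 4 knockout values exceeded all 4 control values, with replicate 2 the lowest of the knockout group and the highest of the control group. The log2 fold change was 1.00 (SE 0.18, limma adjusted p = 0.0051), from means of 644.3 ± 27.4 and 1312 ± 300.0 (SD, n = 4 each). NAIP lies in a duplicated stretch of chromosome 5 that holds near-identical partial copies, and how reads were shared among them was not tested, so its level is uncertain.

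NLRC4, the partner that NAIP recruits, did not differ beyond its spread. It had 317.8, 319.1, 323.2 and 465.1 normalized counts in Control and 643.6, 401.4, 446.9 and 379.7 in IRF8 KO replicates 1 to 4. Control replicate 4 was above IRF8 KO replicates 2, 3 and 4, so the groups overlapped. Its log2 fold change of 0.38 had a 95% interval from -0.12 to 0.88 (limma adjusted p = 0.28), and it was higher in the knockout in 3 of the 4 same-numbered pairs.

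AIM2, the sensor of double-stranded DNA in the cytosol, also overlapped. The Control replicates had 112.6, 135.4, 132.1 and 218.4 normalized counts and the IRF8 KO replicates 97.0, 116.6, 138.1 and 94.4. Control replicate 4 alone was well above the rest. Its log2 fold change was -0.39, with a 95% interval from -0.98 to 0.20 (limma adjusted p = 0.35).

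Of the sensors, NLRP3 and AIM2 lie on the same chromosome and are both driven by inflammatory or interferon signals in macrophages, and the 250 bases before their RefSeq start sites are printed to show the motifs found there (GRCh38.p14, 5′ to 3′ on the strand of the gene). Promoter entries were matched by symbol for 5 of the 10 members, NLRP3, NLRC4, AIM2, PYCARD and IL1B, with 3 alternative starts for NLRC4. Capitals mark a match to TATAAA, the TATA box, in NLRP3, and in AIM2 a match to the interferon-stimulated response element (ISRE) to which IRF proteins bind, searched as GAAA, any 2 bases and GAAA, where it reads on the opposite strand.
NLRP3, chr1:247415923-247416172, plus strand: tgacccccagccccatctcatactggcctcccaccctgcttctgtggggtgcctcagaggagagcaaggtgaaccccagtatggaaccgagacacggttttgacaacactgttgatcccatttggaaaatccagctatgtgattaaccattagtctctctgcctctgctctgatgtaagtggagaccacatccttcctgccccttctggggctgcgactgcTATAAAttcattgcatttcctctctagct
AIM2, chr1:159076767-159077016, minus strand: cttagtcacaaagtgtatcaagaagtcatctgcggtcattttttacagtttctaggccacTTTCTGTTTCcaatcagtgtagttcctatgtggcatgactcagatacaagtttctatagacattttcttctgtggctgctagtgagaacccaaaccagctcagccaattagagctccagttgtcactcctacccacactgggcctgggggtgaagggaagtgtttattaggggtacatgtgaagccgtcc

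Counted from the start site, the AIM2 match spans positions -190 to -181 and the NLRP3 TATA box -29 to -24. Of the 35116 RefSeq promoter entries, 3.02% held the ISRE and 10.7% TATAAA on either strand in the same 250 bases. TATAAA was in 2 of the 7 entries of these members, that of NLRP3 and 1 of NLRC4, there at -110 to -105. The composite of an ETS and an IRF site that IRF8 binds together with PU.1, searched as GGAA, any 2 bases and GAAA, was in 2.41% of entries and in 0 of the 7 entries of these members. The letters of the 3 motifs cannot match at 1 position of 1 strand. Among the members with entries, AIM2 alone held the ISRE in this window. A match is no evidence of binding, and IRF8 ChIP-Seq was not analysed here.

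PYCARD encodes ASC, the adaptor that links NLRP3 and AIM2 to caspase-1. Its normalized counts were 4028, 2248, 3882 and 2382 in Control replicates 1 to 4 and 3393, 2276, 4518 and 2352 in the IRF8 KO replicates. In both groups replicates 1 and 3 were above replicates 2 and 4, and the 2 groups spanned nearly the same range. The means, 3135 ± 950.3 and 3135 ± 1053 (SD, n = 4 each), differed by a log2 fold change of -0.01 with a 95% interval from -0.65 to 0.63 (limma adjusted p = 0.99). Blocked on replicate number, the interval narrowed to -0.27 to 0.26.

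CASP1, the protease of the complex, had the clearest difference of the members. The Control replicates had 1251, 1304, 1260 and 1376 normalized counts. The IRF8 KO replicates had 2731, 3097, 3422 and 3058, with replicate 1 nearest to the control group and replicate 3 farthest from it. Its log2 fold change was 1.24 (SE 0.11, limma adjusted p = 2.0e-04), a 2.36-fold rise with means of 1298 ± 57.0 and 3077 ± 282.4 (SD, n = 4 each). CASP1 shares a near-identical stretch with its neighbour CARD16, so reads of the 2 genes could have been exchanged or dropped; this was not tested, and CARD16 is described below.

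IL1B and IL18, the cytokines that caspase-1 matures, differed from each other. IL18 had 112.6, 502.0, 106.3 and 370.0 normalized counts in Control and 638.3, 1094, 582.3 and 750.6 in IRF8 KO replicates 1 to 4. In each group replicates 1 and 3 were lower than 2 and 4, and still every knockout value was above every control value. The log2 fold change was 1.77 (SE 0.52), close to the threshold at a limma adjusted p of 0.046. IL18 lost its call under edgeR (adjusted p = 0.087), with upper quartile scaling (adjusted p = 0.056), without limma's trend (adjusted p = 0.055), and without Control replicate 1 or 3 or any 1 of the 4 IRF8 KO replicates (adjusted p between 0.078 and 0.105). Blocked on replicate number, the IL18 difference passed by a wide margin (SE 0.30, adjusted p = 0.0051). That block called 28.7% of all genes, and the labels do not define the pairs on which it rests.

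IL1B was low in both groups. It had 119.9, 88.0, 104.2 and 124.3 normalized counts in Control and 65.0, 27.7, 211.3 and 98.4 in IRF8 KO replicates 1 to 4. The knockout values reached both below and above the whole control range, with replicate 3 the highest and replicate 2 the lowest of all 8 libraries. The log2 fold change of -0.46 had a 95% interval from -1.67 to 0.76 (limma adjusted p = 0.63), an interval that includes a 2-fold fall.

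GSDMD encodes gasdermin D, the pore-forming protein that caspase-1 and the inflammatory caspase CASP4 cut. Its normalized counts were 1709, 2362, 1700.0 and 2211 in Control and 3300.3, 2936, 3297 and 2701 in IRF8 KO replicates 1 to 4. The groups did not overlap, but the gap between IRF8 KO replicate 4 and Control replicate 2 was small. GSDMD rose by a log2 fold change of 0.63 (SE 0.15, limma adjusted p = 0.019), which is 1.54-fold. The call was lost without Control replicate 1, Control replicate 3 or IRF8 KO replicate 1 (adjusted p between 0.053 and 0.057).

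**Figure D2:**
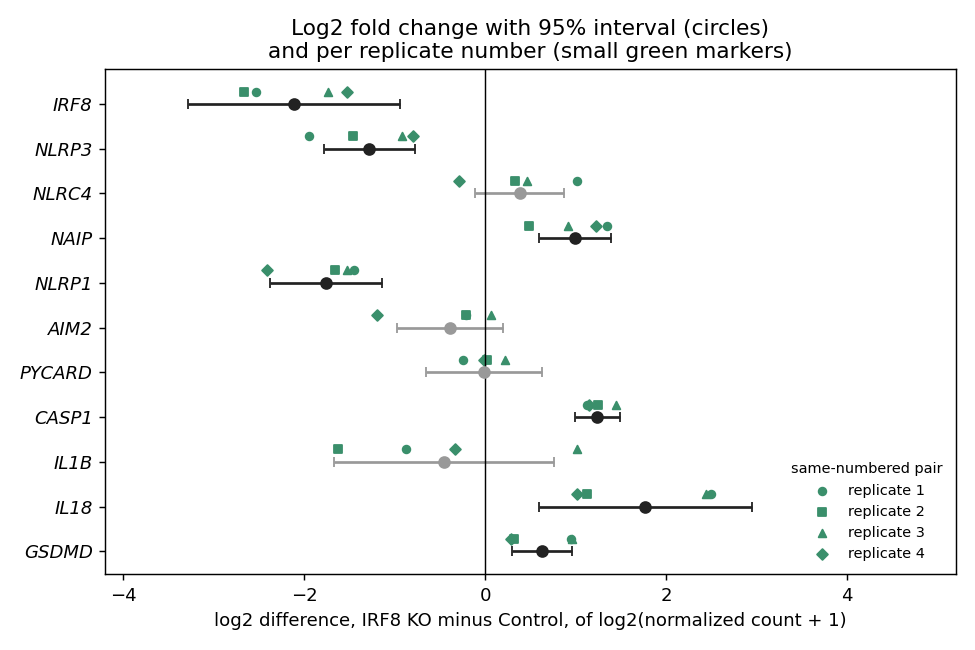
Log2 fold change of IRF8 and the 10 members (horizontal axis, IRF8 KO minus Control), as circles with 95% intervals from limma, black where the adjusted p was below 0.05 and grey otherwise; small green markers above each circle give the difference within each replicate number. CASP1 lies between 1.13 and 1.44 in all 4 pairs, IL18 between 1.02 and 2.49, and IL1B on both sides of 0.

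Same-numbered pairs, which the labels do not define, show how far the size of each difference varied. Their direction was already fixed for the called members, whose groups do not overlap. The log2 difference lay between -1.94 and -0.79 for NLRP3 and between -2.41 and -1.45 for NLRP1. It lay between 0.49 and 1.35 for NAIP and between 0.29 and 0.96 for GSDMD. For IL18 the pairs fell apart into 2.49 and 2.44 for replicates 1 and 3 and 1.12 and 1.02 for replicates 2 and 4. Replicates 1 and 3 lay on 1 side of replicates 2 and 4, the same side in both groups, for PYCARD and IL18 among the members, a pattern shown by 38.2% of tested genes. For GSDMD the sides were opposite, replicates 1 and 3 being the lower ones in Control and the higher ones in IRF8 KO. Relative spread between replicates also differed by gene. It was 4.25% of the mean for NAIP and 4.39% for CASP1 in Control, against 71.9% for IL18 in Control and 78.8% for IL1B in IRF8 KO (SD over mean, n = 4).

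**Figure D3:**
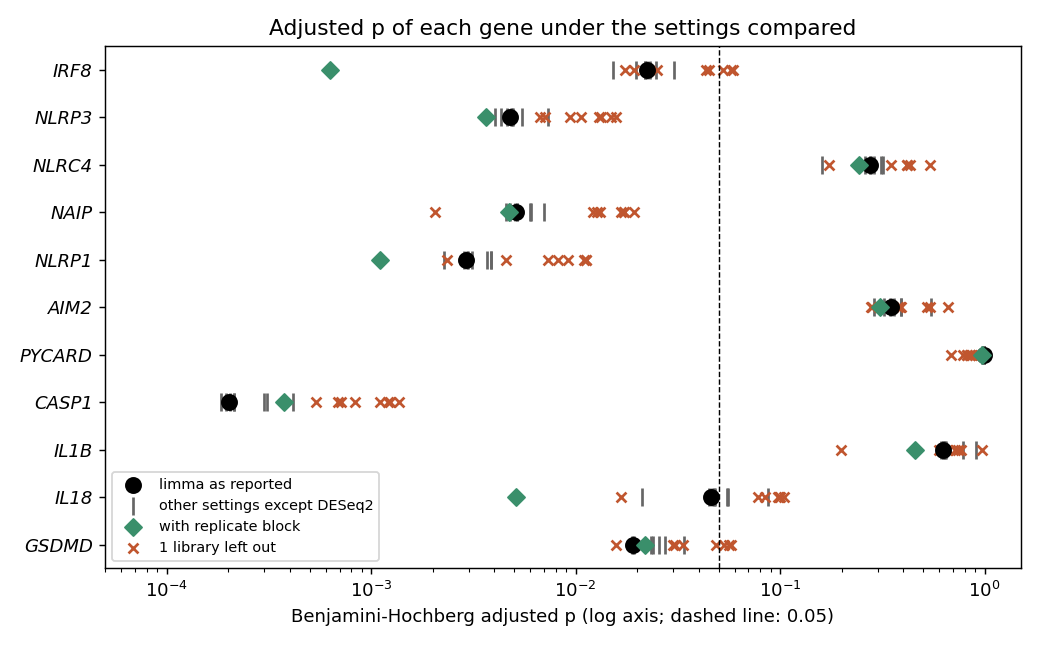
Benjamini-Hochberg adjusted p (log axis, dashed line at 0.05) of IRF8 and the members in the reported limma fit (black circles), blocked on replicate number (green diamonds), with 1 library left out (crosses) and under the other settings except DESeq2 (bars). CASP1, NLRP1, NAIP and NLRP3 stay left of the line throughout, IL18 and GSDMD lie on both sides of it, and NLRC4, AIM2, PYCARD and IL1B stay right of it.

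The members lie on 7 chromosomes, and their differences were set beside those of nearby genes. The median log2 fold change of all tested genes was 0.22 on chromosome 5, which carries NAIP, and lay between -0.02 and 0.09 on chromosomes 1, 2, 8, 11, 16 and 17. Among the 60 tested genes that flank the members, 3 on each side, 13 were called, where 18.2% of all tested genes were. Of these, 9 were higher and 4 lower (8.65% and 9.56% of all tested genes). GCSAML, near NLRP3 and among those higher, passed the filter only through the IRF8 KO libraries (mean 4.76 in Control, 34.9 in IRF8 KO). The calls of ZNF669 near NLRP3, MCCC2 near NAIP, MIS12 near NLRP1, and BCO2 and NCAM1 near IL18 depended on single libraries. Each was lost in several fits with 1 library left out (limma adjusted p between 0.050 and 0.097). NAIP, at 1.00, was above all 6 of its flanking genes, whose log2 fold changes ran from 0.07 to 0.57. Around NLRP1, at -1.76, they ran from -0.42 to 0.16, and around GSDMD, at 0.63, from 0.01 to 0.52 with none called.

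The genes flanking CASP1 ran from -1.55 for DYNC2H1 to 0.87 for KBTBD3, with 3 called higher and 1 lower. The DYNC2H1 call was lost without Control replicate 1, 3 or 4 or IRF8 KO replicate 4, and the KBTBD3 call without Control replicate 1 or 3 or IRF8 KO replicate 1 (adjusted p between 0.050 and 0.061). CASP4, which senses cytosolic lipopolysaccharide and cuts GSDMD, had 2162, 2695, 1949 and 2543 normalized counts in Control and 3468, 4167, 4811 and 4521 in IRF8 KO replicates 1 to 4. The groups of CASP4 did not overlap and its log2 fold change was 0.86 (SE 0.15, limma adjusted p = 0.0051). CARD16, a short protein made of a caspase-1-like CARD domain that can bind caspase-1, had 382.1, 413.2, 399.5 and 448.2 in Control against 631.9, 734.1, 813.9 and 755.5 in IRF8 KO replicates. It rose by 0.83 on the log2 scale (SE 0.14, limma adjusted p = 0.0039). CASP5, the other lipopolysaccharide-sensing caspase of this locus, was low, at 26.2 ± 8.59 and 29.5 ± 8.24 normalized counts (SD, n = 4 each; limma adjusted p = 0.79). CARD17 and CARD18, further CARD-only genes there, had at most 1.35 normalized counts in any library and were not tested.

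**Figure D4:**
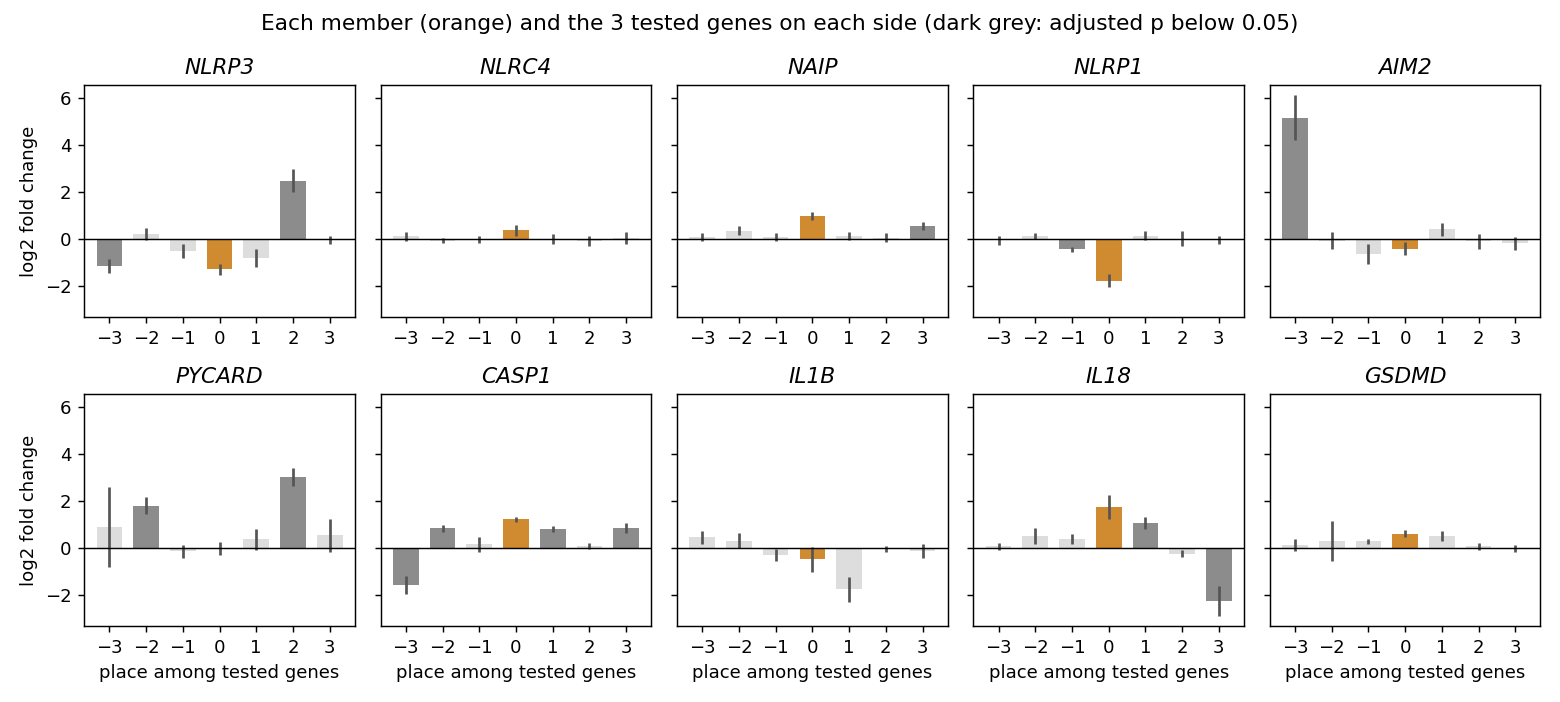
Log2 fold change (bars, with standard error) of each member in orange at place 0 and of the 3 tested genes on each side of it along the chromosome; flanking genes are dark grey where the adjusted p was below 0.05 and light grey otherwise. DYNC2H1 at place -3 falls and CASP4, CARD16 and KBTBD3 at places -2, 1 and 3 rise beside CASP1, whereas no gene next to NLRC4 or GSDMD was called.

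Beyond the 10 members, 91 further genes of the pathway were listed by role, of which 63 were tested; 12 were higher and 6 lower in the IRF8 KO libraries, so that 28.6% were called, beside 18.2% of all genes. Of those called, NLRP4, NLRP11 and IL18R1 passed the filter on low values only through the group in which they were high, so that they had to differ. The 28.6% includes them and is partly fixed by the filter, so it is a description, as are their counts below. Among 23 other sensors, 15 were tested, 2 rose and 4 fell (8.65% and 9.56% of all tested genes). Their median log2 fold change was -0.18 beside -0.00094 for all tested genes. MEFV encodes pyrin, an inflammasome sensor of bacterial toxin activity. Its normalized counts were 511.6, 222.5, 521.9 and 218.4 in Control and 154.5, 53.5, 48.8 and 40.3 in IRF8 KO replicates, a log2 fold change of -2.39 (SE 0.49, limma adjusted p = 0.010). The NLR genes NLRP6, NLRP11 and NLRP4 fell as well, but from low levels of 232.5 ± 93.7, 36.1 ± 6.57 and 20.4 ± 2.68 normalized counts (SD, n = 4 each) in Control. In IRF8 KO libraries NLRP6 had 35.2 ± 31.5 and NLRP11 had 7.67 ± 5.56 (SD, n = 4 each), while NLRP4 was at 0 in 3 libraries and at 1.35 in replicate 3.

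Rising sensors were NOD1 and MNDA. NOD1, a receptor for bacterial peptidoglycan that signals to NF-κB and not to caspase-1, averaged 679.6 ± 61.9 in Control and 1473 ± 156.8 in IRF8 KO (SD, n = 4 each), with a difference of 1.11 on the log2 scale (SE 0.13, limma adjusted p = 6.8e-04). MNDA, a nuclear relative of AIM2 found in myeloid cells, had 374.9, 28.5, 353.3 and 113.0 in Control against 13562, 1413, 10089 and 4002 in IRF8 KO replicates 1 to 4. Replicates 1 and 3 were above 2 and 4 in both groups, and the log2 fold change was 5.18 (SE 0.94, limma adjusted p = 0.0061). IFI16, another DNA sensor of that family, had a log2 fold change of -0.63 (limma adjusted p = 0.38), and blocked on replicate number its adjusted p was 0.011.

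Of the 24 adaptors and regulators 23 were in the table and 17 were tested. CARD16 and SERPINB1 rose and 0 fell (8.65% and 9.56% of all tested genes), with a median log2 fold change of 0.05. SERPINB1, an inhibitor of neutrophil serine proteases that also restrains inflammatory caspases, had 1139, 1799, 1036 and 1529 normalized counts in Control and 6423, 2755, 3699.6 and 3276 in IRF8 KO replicates. Its log2 fold change was 1.51 (SE 0.28, limma adjusted p = 0.0067). NEK7, the kinase that NLRP3 needs to assemble, had 5084 ± 463.1 and 3994 ± 803.1 normalized counts (SD, n = 4 each) and did not pass, with a log2 fold change of -0.37 (limma adjusted p = 0.17). With the replicate block 5 genes of this list were called, where 28.7% of all genes were, among them P2RX7, SUGT1 and LRRFIP2, named here after their values were seen.

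Among 13 further caspases, pore proteins and processing proteases, 11 were tested, 5 rose and 0 fell (8.65% and 9.56% of all tested genes). Their median log2 fold change was 0.41. With the replicate block 6 genes of the list were called, where 28.7% of all genes were. GSDME, a further gasdermin, was then called lower (log2 fold change -0.85, limma adjusted p = 0.025 with the block and 0.45 without). GSDME is named here after its values were seen. Among the genes that rose, beside CASP4, were the caspase CASP8 and the proteases ELANE and CTSG. CASP8, which starts death receptor apoptosis and can stand in for caspase-1, had a log2 fold change of 0.53 (SE 0.12, limma adjusted p = 0.015). ELANE and CTSG are granule serine proteases of immature neutrophils and monocytes, not caspases or pore proteins, and were listed because they can process gasdermin D and IL-1 family cytokines. ELANE had 2922, 2865, 2839 and 2843 normalized counts in Control and 58196, 24555, 36883 and 31207 in IRF8 KO replicates, a log2 fold change of 3.64 (SE 0.23, limma adjusted p = 4.1e-05). CTSG had a log2 fold change of 3.30 (SE 0.56, limma adjusted p = 0.0046).

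**Figure D5:**
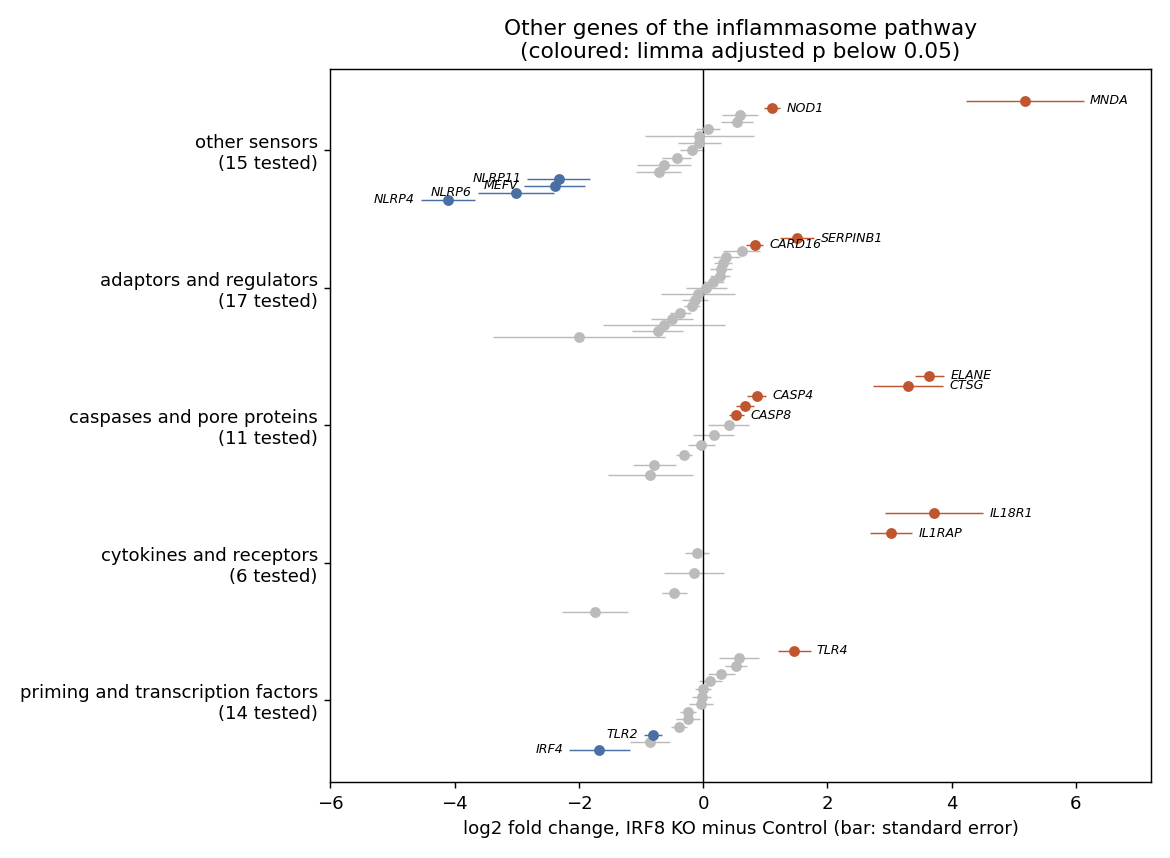
Log2 fold change (horizontal axis, IRF8 KO minus Control, with standard error) of the tested genes of 5 further inflammasome lists; red and blue points rose or fell at a limma adjusted p below 0.05, with names on all but 1 of them, and grey points did not pass. Called caspases and proteases and called genes of the cytokine and receptor list lie on the right, whereas called sensors and priming genes lie on both sides.

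On the side of the cytokine targets, 6 of 17 genes were tested, 2 rose and 0 fell (8.65% and 9.56% of all tested genes). Their median log2 fold change was -0.12. IL1RAP, the signalling chain shared by the IL-1 and IL-33 receptors, had 1678, 3363, 1559 and 3455 normalized counts in Control and 17126, 17376, 14373 and 31107 in IRF8 KO replicates. Its log2 fold change was 3.02 (SE 0.34, limma adjusted p = 5.5e-04). IL18R1, the ligand-binding chain of the IL-18 receptor, had at most 12.9 normalized counts in a Control and at least 47.4 in an IRF8 KO library. Its log2 fold change was 3.71 (SE 0.79). IL18R1 passed the filter only through the IRF8 KO libraries, so its place among the 2 genes that rose is a description. IL1RN, the natural antagonist of IL-1, had 2224, 671.1, 2728 and 851.2 normalized counts in Control and 613.8, 291.5, 664.9 and 234.1 in IRF8 KO replicates. All knockout values of IL1RN were below all control values, yet its log2 fold change of -1.74 had a limma adjusted p of 0.053. The IL1RN value passed with the replicate block (adjusted p = 5.4e-04), with DESeq2 (adjusted p = 0.0020), with edgeR (adjusted p = 0.040) and without Control replicate 2 (adjusted p = 0.030). With upper quartile scaling, too, 3 genes of this list were called, 2 of them higher, where 2367 of all genes were. Without Control replicate 2, 4 genes of the list were called, 3 of them higher, where 2027 of all genes were. That fit applied the filter to the remaining libraries. It thereby admitted the receptor gene IL1R1 (mean 9.62 over the 8 libraries, named after its values were seen) only through the IRF8 KO libraries. The count is thus partly fixed by the filter and is a description.

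The priming receptors and transcription factors were 14, all tested, of which 1 rose and 2 fell (8.65% and 9.56% of all tested genes). Their median log2 fold change was -0.03. TLR4, the lipopolysaccharide receptor that primes NLRP3 and IL1B in macrophages, rose from 486.1 ± 117.8 to 1359 ± 381.0 normalized counts (SD, n = 4 each; log2 fold change 1.47, SE 0.26, limma adjusted p = 0.0052). TLR2, the receptor for bacterial lipoproteins, fell from 3693 ± 379.7 to 2116 ± 332.0 (SD, n = 4 each; log2 fold change -0.81, SE 0.14, limma adjusted p = 0.0048). IRF4, a close relative of IRF8, had 513.2, 718.5, 506.9 and 488.7 normalized counts in Control and 57.5, 345.1, 192.3 and 228.2 in IRF8 KO replicates. The IRF4 log2 fold change was -1.67 (SE 0.49, limma adjusted p = 0.045), and its call did not hold with edgeR (adjusted p = 0.060) or without any 1 of the 4 Control replicates, IRF8 KO replicate 3 or IRF8 KO replicate 4 (adjusted p between 0.071 and 0.097). IRF2, a factor known to drive GSDMD transcription, had 2084 ± 271.9 and 1786 ± 495.6 normalized counts (SD, n = 4 each; limma adjusted p = 0.43). IRF1 did not pass at a log2 fold change of 0.57 (limma adjusted p = 0.26), and with the replicate block its adjusted p was 0.048. With that block 7 genes of the list were called (28.7% of all genes). With DESeq2 5 were called (3402 of all genes), and 5 without IRF8 KO replicate 2 (2459 of all genes).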

How the data were processed

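RNA-Seq was made from 4 Control and 4 IRF8 KO samples of MV4-11 cells. Per the methods of the study, the authors aligned reads to the GENCODE v32 transcriptome with RNA-Star, counted reads per gene with featureCounts and normalized them with DESeq2. The processing notes list hg19 and hg38 without saying which served the RNA-Seq. The deposited signal is the read count of a gene divided by 1 size factor per library. Columns named WT were taken as Control, the only other RNA-Seq group. The authors' deposited comparison (fold changes and p-values) was not used, and ChIP-Seq was not analysed here. Dividing by the value of 1 read gave whole reads for 100% of values within 0.01 reads. limma 3.58.1 (R 4.3.3, trended robust prior) was fitted to log2(normalized count + 1) of 13110 genes whose mean reached 10, adjusted by Benjamini-Hochberg; the fold change understates that of low genes. Exact permutation tests were two-sided. The script was tested on simulated data. edgeR 4.0.16 called 2370 genes and DESeq2 1.42.0 called 3402 on the recovered reads, against 2387 with limma; other alternatives were the pseudocount, filter, scaling, trend, replicate block and leaving out each library. Same-numbered libraries deviated together (correlation 0.37, 0.48, 0.45 and 0.50), and replicate numbers were taken as pairs. Replicates 1 and 3 (0.47 and 0.41 between groups) and replicates 2 and 4 (0.40 and 0.41) also deviated together. The correlations therefore show a split of 1 and 3 against 2 and 4, and do not single out equal numbers. The labels do not say what the numbers mark. Named genes are the members, IRF8, up to 6 called genes per list, up to 3 flanking genes per member, and 11 fixed genes; some genes of the lists are counted but not reported here by name. RefSeq (GRCh38.p14) gave chromosomes and order for 13010 tested genes. Transcript lengths were not used, so levels were not compared between genes. The members and lists were chosen with earlier results of these data known.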

Additional observations from a re-analysis of the deposited data

Results flagged for a closer look

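By Dixon's test of a single library far from the rest of its group, 1 of 22 groups of 4 stood out, where chance gives about 1 in 20. This was NLRC4 in Control, where replicate 4 had 465.1 normalized counts and the other 3 lay between 317.8 and 323.2. Without Control replicate 4 the log2 fold change of NLRC4 was 0.51 (limma adjusted p = 0.17).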

How the results depend on the processing

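The calls of NLRP3, NAIP, NLRP1 and CASP1 and their direction held under all 18 alternatives, with log2 fold changes of -1.41 to -1.15, 0.88 to 1.14, -1.94 to -1.62 and 1.19 to 1.30. NLRC4 (0.22 to 0.51) and AIM2 (-0.51 to -0.19) were never called. IL18 lost its call with upper quartile scaling (log2 fold change 1.75), without trend (1.77) and with edgeR (1.47), and ran from 1.43 to 2.17 with 1 library left out. GSDMD ran from 0.56 to 0.71 and IRF8 from -2.46 to -1.65 with 1 library left out. PYCARD, never called, changed sign with DESeq2 (0.0040) and ran from -0.20 to 0.13 with 1 library left out; IL1B changed sign without IRF8 KO replicate 2 (0.033) and ran from -0.93 to 0.033. With the replicate block 3769 of all genes were called (28.7%), against 2387. The block also called 5 adaptors and regulators and 7 priming and transcription factors, and ended no call of a member. Of the cytokines and receptors 5 were called with no filter (2459 of all genes) and 1 with a mean of at least 100 (1908 of all genes). With 1 library left out 2 to 4 were, where 1668 to 2459 of all genes were. Leaving out a Control library admitted IL1R1 only through the IRF8 KO libraries, so the 3 or 4 called there are partly fixed by the filter. Priming and transcription factors were 5 with DESeq2 (3402 of all genes) and 2 to 5 with 1 library left out. The study's clone structure and the low counts of IL1B limit what the 4 libraries per group can show. The cause of these changes was not tested.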

Other observations

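Some receptor genes of the IL-1 family were below the filter on low values and are named here after their values were seen. IL1R1, the ligand-binding chain of the IL-1 receptor, had at most 1.73 normalized counts in a Control library and between 8.60 and 22.4 in the IRF8 KO libraries. IL18RAP, the second chain of the IL-18 receptor, had at most 1.73 in Control and between 2.13 and 11.8 in IRF8 KO libraries. With no filter, the limma adjusted p was 0.0012 for IL1R1 and 0.012 for IL18RAP. IL1RL1, the receptor of IL-33, had at most 1.61 and between 1.35 and 10.7 (adjusted p = 0.020 with no filter), while IL33 itself had at most 0.94 in any library. These genes rest on a few reads per library, so their fold changes are not given.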
